A study of Danio rerio with 6 samples.

Results

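The SR and hnRNP genes encode RNA-binding proteins that help to choose splice sites. RNA-seq measured their transcripts in cells positive for cd41, taken from zebrafish embryos 40 hours after fertilization and labelled as blood stem and progenitor cells. One group was ddx41 mutant, with 3 libraries, and the other was wildtype, which the series design describes as siblings, also with 3 libraries. No treatment is named, and the sample titles show that both genotypes carried a cd41 GFP reporter. The allele of ddx41, the number of embryos pooled per library and whether libraries came from separate clutches are not given in the sources used here, so the p-values reflect the spread of the 3 libraries of a genotype, which may be technical. DDX41 is a DEAD-box RNA helicase found with spliceosomes, and inherited mutations of it predispose people to myeloid leukaemia. Levels of ddx41 were not analysed here. Genes were taken by symbol, as every gene whose name begins with srsf or hnrnp followed by a digit or a letter. The rule found 41 of the 32105 genes of the count table, 17 SR genes and 24 hnRNP genes. Of these, 40 held 10 or more counts in at least 3 libraries, and the same 40 entered the test.

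SR proteins carry RNA recognition motifs and a tail rich in arginine and serine. They bind exonic enhancers and recruit the U1 and U2 particles to nearby splice sites, and several also act in mRNA export, translation and nonsense-mediated decay. Kinases of the SRPK and CLK families phosphorylate the tail and so set where the proteins sit and when they act. The hnRNPs coat nascent transcripts, and many of them antagonise SR proteins by silencing exons. Both families are known to limit their own levels by splicing in exons that send their transcripts to decay. In human blood, SRSF2 is recurrently mutated in myelodysplastic syndromes and HNRNPK is lost in some acute myeloid leukaemias.

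Most of these splicing regulators did not pass the test between ddx41 mutant and wildtype cells, and 3 rose. They were the copy of SRSF1 on chromosome 21, at 4.68-fold, the copy of HNRNPK on chromosome 5, at 2.16-fold, and hnrnpl2, at 2.11-fold. None fell. In other words 1 of 16 SR genes and 2 of 24 hnRNP genes were higher, beside 3.34% of the 18722 genes tested that were higher and 1.99% that were lower, 5.33% in all (edgeR quasi-likelihood test, Benjamini-Hochberg adjusted p below 0.05). With 3 of 40 genes called, the count does not set the families apart from that background. At an unadjusted p below 0.05, 4 SR and 3 hnRNP genes were higher and none was lower, beside 11.9% and 10.9% of all genes. By DESeq2 the same 3 genes were higher and none lower, beside 6.93% and 6.24% of all genes. By limma voom with sample weights, 3 SR and 2 hnRNP genes were higher and none lower, beside 7.80% and 7.22%.

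Log2 fold changes were small and mostly above 0. Their median was 0.33 over the SR genes and 0.32 over the hnRNP genes, beside 0.02 over all genes tested. The fold change was positive for 14 of 16 SR genes and 14 of 24 hnRNP genes, beside 51.0% of all genes. For 14 of the 40 genes every mutant library was above every wildtype library, and for 2 every one was below, beside 15.3% and 13.4% of all genes. For 20 of the 40 genes the 95% interval of the fold change lay within 2-fold in either direction, 14 of them hnRNP and 6 SR genes. The other 20 intervals reached past 2-fold. Of all 18722 genes tested, 2489 had an interval within 2-fold. The median SE was 0.260 over the 40 genes and 0.505 over all genes tested.

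**Figure D1:**
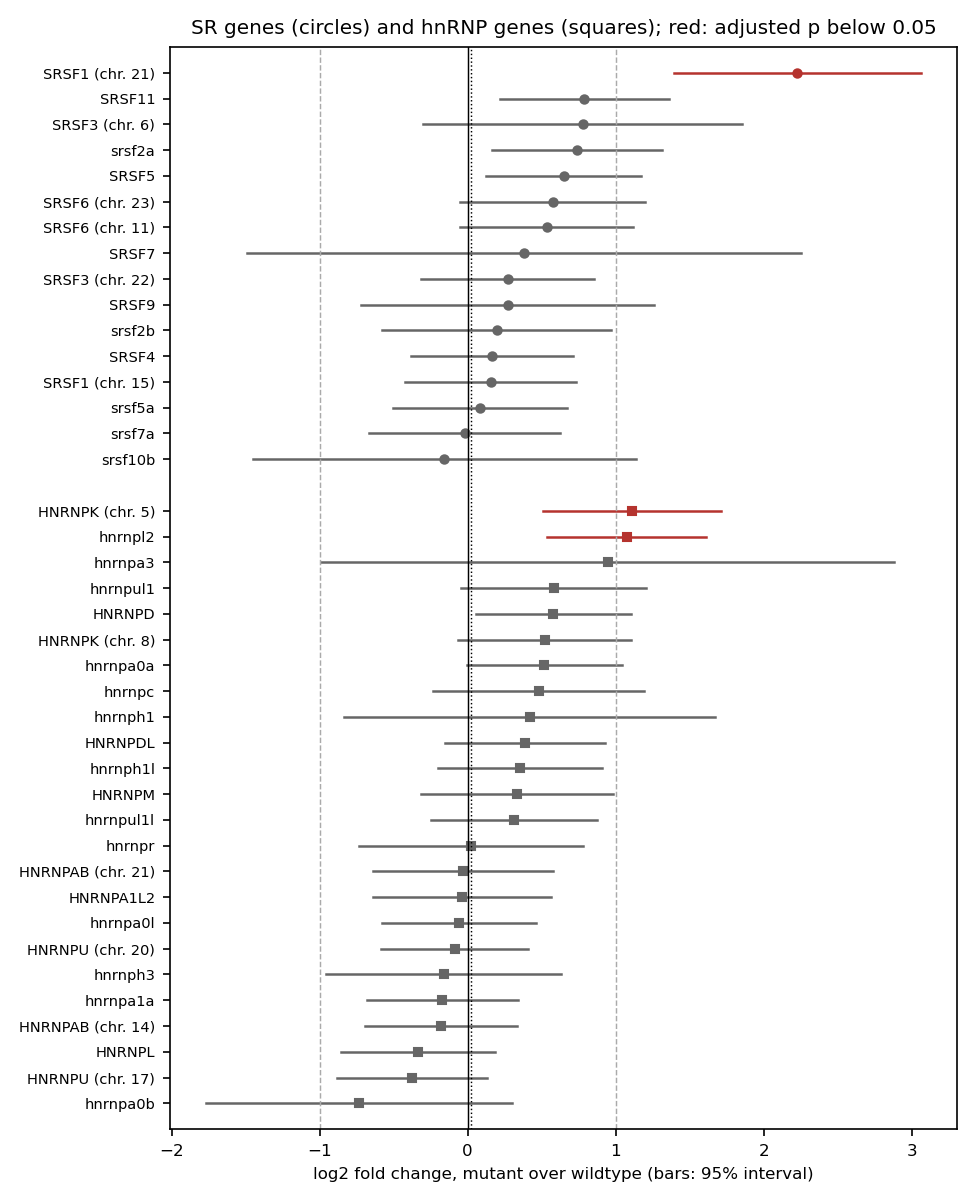
Log2 fold change of mutant over wildtype for the 40 tested genes, with 95% intervals from the edgeR fit; circles are SR genes, squares hnRNP genes, red marks adjusted p below 0.05, dashed lines mark 2-fold changes and the dotted line the median of all genes. The red points are SRSF1 on chromosome 21 at 2.23, HNRNPK on chromosome 5 at 1.11 and hnrnpl2 at 1.07, and most other intervals cross 0.

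Counts on genes ranged from 14577735 to 15912260 in the mutant libraries and from 17001423 to 17639699 in the wildtype libraries. Levels are given as CPM, the count scaled by the library total after TMM correction, which allows comparison between libraries. Markers of several other cell types were present and differed between genotypes. The numbers of them called by edgeR are to be read beside 3.34% of all genes tested higher and 1.99% lower. Of 12 erythroid genes 10 were higher in mutants, with a summed level of 9645 to 30560 CPM against 478 to 3789 CPM in wildtypes. Of 11 genes listed as myeloid, only the leukocyte genes ptprc and LCP1 were lower and 0 were higher. The list summed to 8734 to 12260 CPM against 15280 to 30560 CPM. Of 8 blood stem and progenitor genes, TAL1 was higher and the sum was 209 to 392 CPM against 168 to 370 CPM. Of 7 thrombocyte genes 4 were higher, with a sum of 150 to 487 CPM against 74.1 to 187 CPM, and itga2b, which encodes cd41, did not pass (log2 fold change 1.15 ± 0.64, SE; edgeR adjusted p = 0.326). Lens genes (5 of 6 higher) summed to 35.4 to 137 CPM against 2.48 to 8.19 CPM, with CRYAA at 0 in all wildtypes. Neuron and retina genes (2 of 4 lower) summed to 29.3 to 34.2 CPM against 61.7 to 279 CPM. The part of these marker shifts in the results below was not tested, and in bulk samples fewer cells of a type and less RNA per cell cannot be told apart.

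Among the SR proteins with a pair of RNA recognition motifs, SRSF1 is the founding member, which binds purine-rich exonic enhancers. The table held 2 genes named SRSF1. The one on chromosome 21 (ENSDARG00000017843, 39523837 to 39554147, GRCz10) stood at 28.3, 30.2 and 40.4 CPM in the mutant libraries and at 7.18, 4.34 and 9.57 CPM in the wildtype libraries. Every mutant library lay above every wildtype library, and the groups were far apart. The log2 fold change was 2.23 ± 0.37 (SE; edgeR adjusted p = 0.0151). The gene did not pass by edgeR when mutant replicate 2 was left out (2.29, adjusted p = 0.0560), nor when mutant replicate 3 was (2.06, 0.0771) or wildtype replicate 2 (1.97, 0.0832).

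The other SRSF1 gene, on chromosome 15 (ENSDARG00000057691, 16136058 to 16140496), was the more abundant copy per length in both genotypes. Its levels were 81.5, 83.5 and 98.8 CPM in mutants and 59.1, 88.0 and 89.8 CPM in wildtypes, so the groups overlapped. The log2 fold change was 0.16 ± 0.26 (SE; edgeR adjusted p = 0.769), with a 95% interval of -0.42 to 0.73. Within the pair the chromosome 21 copy took 25.8%, 26.6% and 29.0% of the counts in mutants and 10.8%, 4.70% and 9.63% in wildtypes. The ratio of the copies was thus 4.26-fold higher in mutants. With 3 libraries a group the two-sided exact permutation p was 0.1, the smallest that 3 against 3 can give, and 0.2 adjusted over 10 pairs of copies.

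**Figure D2:**
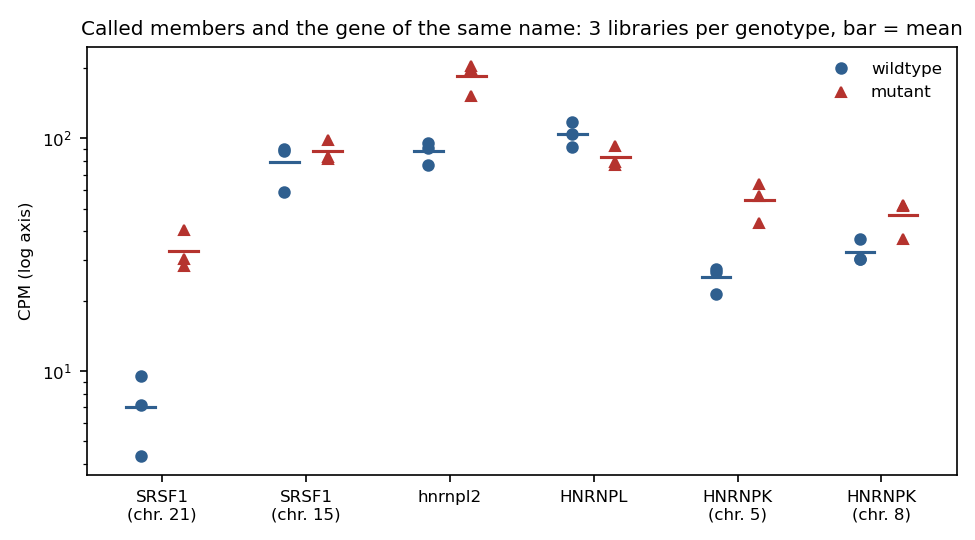
CPM on a log axis for the called genes SRSF1 (chromosome 21), hnrnpl2 and HNRNPK (chromosome 5), each beside the gene of the same or nearest name (HNRNPL for hnrnpl2); circles are wildtype and triangles mutant libraries, 3 of each, and bars are means. The chromosome 21 copy of SRSF1 averages 7.03 CPM in wildtypes and 33.0 CPM in mutants, and the chromosome 15 copy lies between 59.1 and 98.8 CPM in all libraries.

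SRSF4, SRSF5, SRSF6 and SRSF9 also have a pair of motifs. SRSF5 (chromosome 20), which is known as an early response gene of growing liver in the rat, was at 59.0, 61.3 and 68.2 CPM in mutants and 37.7, 38.2 and 44.2 CPM in wildtypes. The groups did not overlap, but the gene did not pass (log2 fold change 0.65 ± 0.23, SE; edgeR adjusted p = 0.138). Its relative srsf5a (chromosome 13) overlapped between groups, at 74.4, 92.8 and 86.3 CPM against 69.9, 66.5 and 103 CPM. SRSF5 held 39.8% to 44.2% of the counts of this pair in mutants and 30.0% to 36.5% in wildtypes (two-sided exact permutation p = 0.1, adjusted 0.2).

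The SRSF6 copies, relatives of the fly protein B52, had similar values, and neither passed. Their log2 fold changes were 0.57 ± 0.28 (chromosome 23) and 0.53 ± 0.26 (chromosome 11, SE; edgeR adjusted p = 0.259 and 0.262), without overlap of the groups in either. The ratio of these copies differed 1.04-fold between genotypes, within the spread of the libraries. SRSF4, with a long arginine and serine tail, was at 0.16 ± 0.24 and SRSF9, with a short one, at 0.27 ± 0.44, and in both the groups overlapped.

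Among the SR proteins with a single motif, srsf2a was the most abundant SR gene per length. SRSF2 stays in the nucleus and has a role in transcription elongation besides splicing. The srsf2a gene (ENSDARG00000057484, chromosome 12, 31605771 to 31611846) was at 244, 264 and 289 CPM in mutants and 127, 202 and 148 CPM in wildtypes. Each mutant library was above each wildtype library. The log2 fold change of 0.74 ± 0.25 (SE) missed the threshold by edgeR (adjusted p = 0.125) and by DESeq2, and passed by limma voom with sample weights (0.74, adjusted p = 0.0359). The second gene, srsf2b, was scarce by comparison, and srsf2a held 94.7% to 95.1% of the pair's counts in mutants and 90.4% to 94.0% in wildtypes (two-sided exact permutation p = 0.1, adjusted 0.2).

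SRSF11, an atypical SR protein that binds U2AF, had tightly grouped mutant values. It was at 93.2, 92.2 and 92.2 CPM in mutants and 55.0, 65.3 and 40.4 CPM in wildtypes, without overlap. Its log2 fold change was 0.79 ± 0.25 (SE; edgeR adjusted p = 0.106), and it passed by limma voom with sample weights (0.84, adjusted p = 0.0336). Of its exon bases 8.08% lie over TRAPPC10 on the other strand, and strand was not used in counting.

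SRSF3 and SRSF7 are small SR proteins that shuttle and load the export receptor onto mRNA. The SRSF3 gene on chromosome 22 was at 104, 83.5 and 85.1 CPM in mutants and 57.1, 77.3 and 91.8 CPM in wildtypes, with overlap (log2 fold change 0.27 ± 0.26, SE). The srsf7a gene was at 52.5, 52.5 and 67.5 CPM in mutants and 39.4, 65.9 and 69.5 CPM in wildtypes, also with overlap (-0.02 ± 0.29). A second SRSF7 gene on chromosome 11 held 9 to 32 counts per library, too few to place its change more closely than -1.49 to 2.25 on the log2 scale. The srsf3a gene was the 1 member left out, with 0 counts in each library, so no level can be given. It shares 96.3% of its exon bases with other genes on the same strand, the SRSF3 gene of chromosome 6 among them, and fragments that fall on more than 1 gene were not counted. That SRSF3 gene, with 69.3% of its exon bases shared, was at 6.75, 8.66 and 7.40 CPM in mutants and 2.43, 5.34 and 5.53 CPM in wildtypes (log2 fold change 0.78 ± 0.48, SE), without overlap, and its values are uncertain for the same reason. SRSF10 is a splicing repressor when dephosphorylated, and srsf10b had the most negative SR fold change. It was at 3.41, 1.87 and 2.87 CPM in mutants and 2.27, 3.35 and 3.47 CPM in wildtypes, with overlap (log2 fold change -0.16 ± 0.57, SE). The srsf10b gene held 29 to 67 counts per library, and another gene on the same strand overlaps 14.3% of its exon bases.

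Summed over the 17 SR genes, levels were 901, 937 and 1012 CPM in mutants and 591.5, 759 and 721 CPM in wildtypes. The sums did not overlap, and the mutant mean was 1.38 times the wildtype mean. As a share of all counts the ratio was 1.26, at 0.0909% ± 0.0130 against 0.0722% ± 0.00882 (SD, n = 3), and these shares did overlap, since mutant replicate 1 held 0.0779% and wildtype replicate 3 0.0811%. That mutant library also had the largest share of counts on mitochondrial genes, 30.7%. With counts outside the mitochondrial genome as the denominator the SR shares were 0.112% to 0.141% in mutants and 0.0877% to 0.103% in wildtypes. The SR genes did not add alike to these sums. The mean of srsf2a, which did not pass by edgeR, was 266 CPM in mutants and 159 CPM in wildtypes. The means of srsf5a were 84.5 and 79.8 CPM, and those of srsf7a 57.5 and 58.3 CPM. The hnRNP sums overlapped, at 1784, 1902 and 2080 CPM in mutants and 1568, 1777 and 1809 CPM in wildtypes, a ratio of means of 1.12. As a share of all counts the ratio was 1.02, at 0.184% ± 0.0295 against 0.180% ± 0.0204 (SD, n = 3). With counts outside the mitochondrial genome as the denominator it was 1.08.

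Among the hnRNP genes, hnRNP K is a KH-domain protein that binds stretches of C and also acts in the p53 response. Its copy on chromosome 5 (ENSDARG00000007034, 54933638 to 54955030) was at 63.7, 43.3 and 56.8 CPM in mutants and 27.6, 21.5 and 26.7 CPM in wildtypes. Each mutant library exceeded each wildtype library. The log2 fold change was 1.11 ± 0.27 (SE; edgeR adjusted p = 0.0468), and it was just inside the threshold: without any 1 of the 6 libraries it did not pass (adjusted p = 0.0560 to 0.170), nor with no filter on low counts (0.0529).

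The copy of HNRNPK on chromosome 8 (ENSDARG00000018914, 49756899 to 49777472) was at 37.1, 51.6 and 51.3 CPM in mutants and 30.4, 30.2 and 37.1 CPM in wildtypes. Mutants were above wildtypes here too, but the closest libraries were nearly equal, and the gene did not pass (log2 fold change 0.52 ± 0.26, SE; edgeR adjusted p = 0.275). The chromosome 5 copy made up 45.6% to 63.2% of the pair in mutants and 41.6% to 47.6% in wildtypes, and these shares overlapped. The log2 ratio of the copies was higher by 0.59 in mutants (two-sided exact permutation p = 0.2, adjusted 0.286), and since 0.1 is the smallest p of this design, the test cannot show whether the copies respond alike.

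The hnRNP L proteins bind repeats of CA and, in mammals, regulate exons of the leukocyte gene CD45. In this table the gene hnrnpl2 (ENSDARG00000059303, chromosome 15, 5796361 to 5811333) was at 153, 199 and 204 CPM in mutants and 76.7, 95.9 and 91.2 CPM in wildtypes. All mutant libraries were above all wildtype libraries. The log2 fold change was 1.07 ± 0.24 (SE; edgeR adjusted p = 0.0359). By level per length it was 10th of the 24 hnRNP genes in wildtypes and 3rd in mutants. It passed without mutant replicate 1, where the adjusted p was 0.0183, and missed the threshold without each of the other 5 libraries (0.0739 to 0.155).

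HNRNPL itself (chromosome 5, 36299538 to 36311750) pointed the other way without passing. It was at 77.1, 79.3 and 92.7 CPM in mutants and 91.7, 117 and 105 CPM in wildtypes, so that 1 mutant library reached into the wildtype range. The log2 fold change was -0.33 ± 0.23 (SE; edgeR adjusted p = 0.435). It begins 546 bases after srsf7a on the same strand, with 0 genes starting between them.

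The hnRNP A/B and D proteins bind UAGGG-like and AU-rich motifs. The 5 most abundant hnRNP genes per length were of the A/B group, while hnrnpa0a, hnrnpa0b and hnrnpa3 were 9th, 22nd and 24th of 24. Other genes overlap 33.5% of the exon bases of hnrnpa0a and 68.3% of those of hnrnpa0b. Fragments on more than 1 gene were not counted, so the ranks of hnrnpa0a and hnrnpa0b may be too low. In order of wildtype level per length of exon, hnrnpa0l stood at 118 ± 14.4, HNRNPA1L2 at 80.8 ± 19.7, HNRNPAB of chromosome 21 at 62.0 ± 16.3, HNRNPAB of chromosome 14 at 56.4 ± 7.12 and hnrnpa1a at 54.9 ± 2.92 CPM per kb (SD, n = 3). The gene hnrnpa0l lay above HNRNPA1L2 in each wildtype library and their ranges did not overlap, while each later neighbour in this order overlapped the one before it.

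In mutants hnrnpa0l was at 180, 148 and 183 CPM and in wildtypes at 158, 201 and 174 CPM, a log2 fold change of -0.06 ± 0.23 (SE). HNRNPA1L2 was at 126, 151 and 169 CPM in mutants and 111, 164 and 183 CPM in wildtypes. HNRNPAB of chromosome 21 was at 90.9, 103 and 114 CPM in mutants and 73.2, 121 and 121 CPM in wildtypes, and the groups overlapped in all 3 genes. For hnrnpa1a, hnrnpa0l, HNRNPA1L2 and both HNRNPAB genes the 95% interval excluded a 2-fold change in either direction, reaching furthest down for HNRNPAB of chromosome 14 (-0.69 to 0.33) and furthest up for HNRNPAB of chromosome 21 (-0.64 to 0.57).

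HNRNPD, also called AUF1, whose product binds AU-rich elements and speeds mRNA decay, was at 98.6, 124 and 94.1 CPM in mutants and 74.1, 72.2 and 65.7 CPM in wildtypes. The groups were apart, but the gene did not pass (log2 fold change 0.58 ± 0.23, SE; edgeR adjusted p = 0.179). Its neighbour HNRNPDL lies 218 bases away on the same strand and was at 0.39 ± 0.24, with overlap. The gene hnrnpa3 held 8 to 110 counts per library and ranged from 0.635 to 7.02 CPM within the mutants alone.

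In the hnrnpa0 pair, hnrnpa0a was at 118, 108 and 129 CPM in mutants and 87.4, 69.6 and 91.2 CPM in wildtypes, while hnrnpa0b was at 3.81, 5.82 and 5.80 CPM against 7.18, 6.08 and 12.4 CPM. In both genes the groups did not overlap, in opposite directions, and neither passed (log2 fold change 0.52 ± 0.23 and -0.73 ± 0.46, SE; edgeR adjusted p = 0.224 and 0.388). The share of hnrnpa0b in the pair was 3.12%, 5.11% and 4.31% in mutants and at least 7.59% in each wildtype library (two-sided exact permutation p = 0.1, adjusted 0.2). Other genes overlap 68.3% of the exon bases of hnrnpa0b on the other strand and 33.5% of those of hnrnpa0a, so both counts are uncertain. The gene hnrnpa0l lies 1265 bases from hnrnpa0b on the same strand, and its 95% interval was -0.58 to 0.46.

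**Figure D3:**
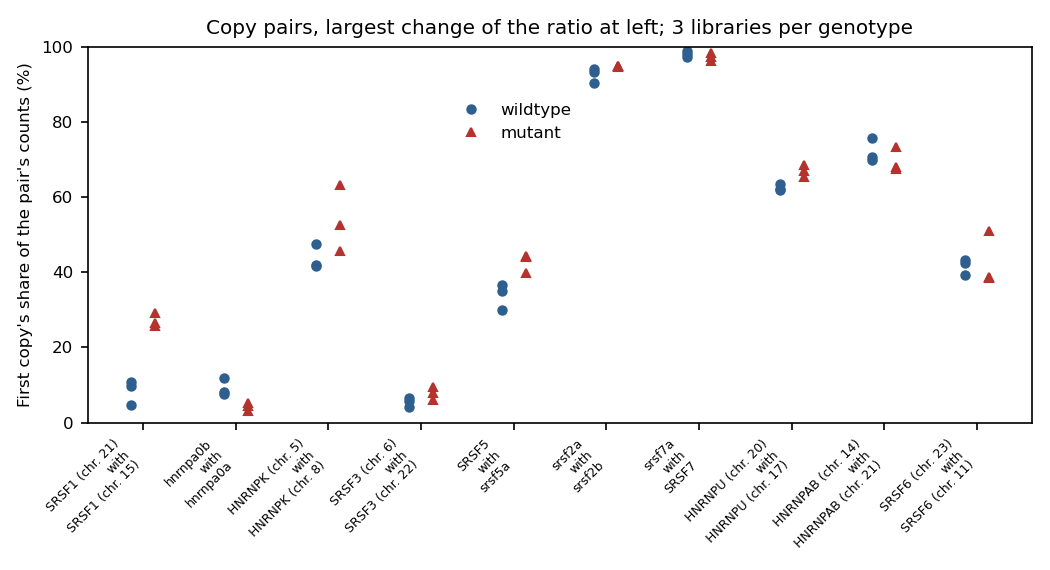
Share of the pair's counts held by the first-named copy, in percent, in each of 3 wildtype (circles) and 3 mutant (triangles) libraries, with the pair whose ratio changed most at the left. The shares do not overlap for SRSF1, hnrnpa0, SRSF5 with srsf5a, srsf2 and HNRNPU, and overlap for the other 5 pairs. Each pair without overlap has a two-sided exact permutation p of 0.1, the smallest of this design, and 0.2 adjusted over 10 pairs. The share of other gene pairs without overlap was not computed.

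HNRNPU, or scaffold attachment factor A, binds RNA and chromatin. Of its 2 copies, the one on chromosome 17 was the lower in mutants, at 55.3, 55.1 and 61.7 CPM against 81.2, 69.8 and 72.2 CPM, with no overlap and without passing (log2 fold change -0.37 ± 0.22, SE; edgeR adjusted p = 0.367). The copy on chromosome 20, which took 65.4% to 68.5% of the pair in mutants and 61.8% to 63.4% in wildtypes, was at -0.09 ± 0.22. The related genes hnrnpul1 and hnrnpul1l, whose human relative HNRNPUL1 acts in the resection of DNA breaks, were at 0.58 ± 0.28 and 0.31 ± 0.25, with overlapping groups.

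None of the remaining hnRNP genes passed. The group H and F proteins bind runs of G, and hnrnph1l, hnrnph1 and hnrnph3 were at 0.35 ± 0.25, 0.42 ± 0.56 and -0.16 ± 0.35. The gene hnrnpc, whose product binds runs of U in nascent transcripts, was at 18.9, 16.0 and 13.1 CPM in mutants and 11.4, 11.6 and 11.3 CPM in wildtypes, with no overlap (0.48 ± 0.32; edgeR adjusted p = 0.414). Of the exon bases of hnrnpc, 10.9% lie over cbln5 on the other strand. HNRNPM was at 0.33 ± 0.29 and hnrnpr at 0.02 ± 0.33 (log2 fold changes, SE).

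**Figure D4:**
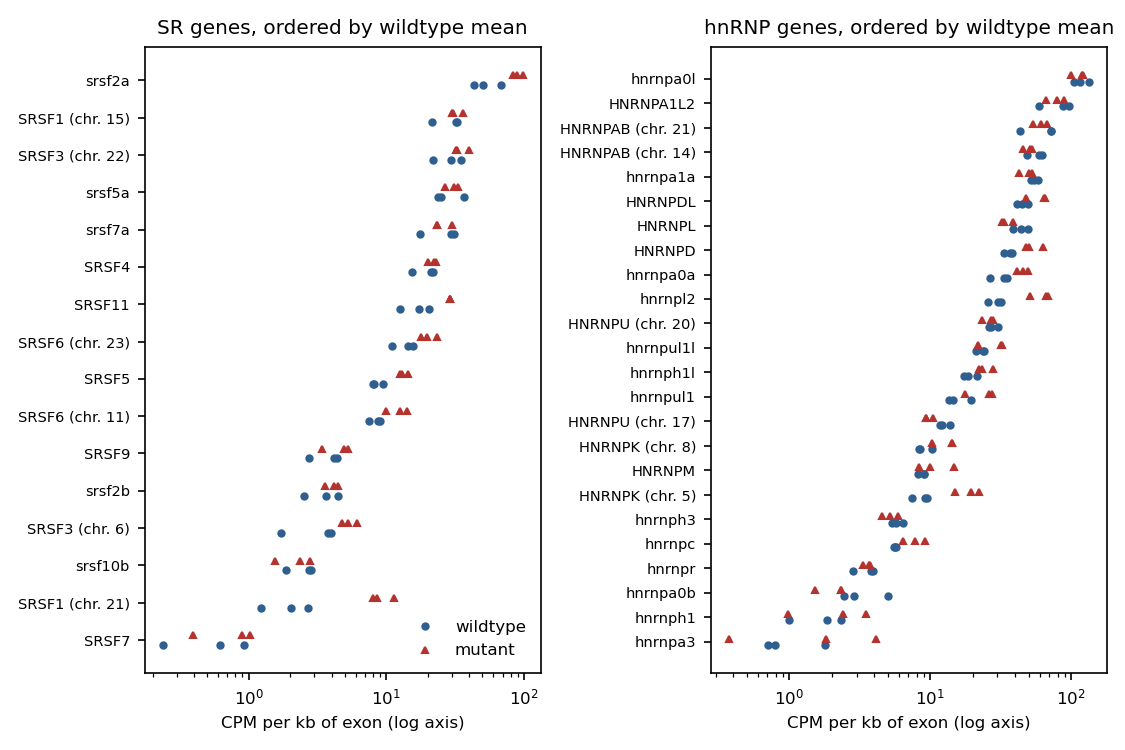
Level in CPM per kb of exon, on a log axis, for 16 SR and 24 hnRNP genes in each wildtype (circles) and mutant (triangles) library, ordered by the wildtype mean. The SR genes range from 0.593 (SRSF7) to 54.1 (srsf2a) and the hnRNP genes from 1.09 (hnrnpa3) to 118 (hnrnpa0l) in wildtype means, and the chromosome 21 copy of SRSF1 averages 1.99 in wildtypes and 9.32 in mutants.

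The levels per length show how uneven the families are. In wildtypes the median was 11.1 CPM per kb over the SR genes and 21.1 over the hnRNP genes, beside 3.49 over all genes tested. The chromosome 21 copy of SRSF1 was 15th of the 16 tested SR genes in wildtypes, at 1.99 ± 0.74 CPM per kb, and 11th in mutants, at 9.32. The top SR gene was srsf2a in both genotypes, at 54.1 ± 13.1 CPM per kb in wildtypes. It was followed by SRSF1 of chromosome 15 at 28.9 ± 6.32, SRSF3 of chromosome 22 at 28.8 ± 6.66 and srsf5a at 28.5 ± 7.21 CPM per kb, which did not differ beyond their spread.

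The genes that modify or assist SR proteins, with related import factors, were compared next. Of 14 genes for SR kinases, the phosphatase PP1 and the transportins TNPO1, TNPO2 and TNPO3, none passed by edgeR in either direction. At an unadjusted p below 0.05, 3 of them were higher and 0 lower, beside 11.9% and 10.9% of all genes, and the median log2 fold change was 0.19. DESeq2 called 1 higher, SRPK3, beside 6.93% of all genes, and limma voom with sample weights 4, beside 7.80%. SRPK3, a kinase known from muscle, was at 2.15 ± 0.55 (SE; edgeR adjusted p = 0.0556). Its levels were low, at 6.99, 13.6 and 15.4 CPM in mutants and 4.38, 1.55 and 2.17 CPM in wildtypes. It passed by edgeR without mutant replicate 1 (adjusted p = 0.0251) or without wildtype replicate 1 (0.0390). It did not pass without mutant replicate 2 or 3 (0.179 and 0.209) or without wildtype replicate 2 or 3 (0.177 and 0.151). The kinase gene clk4a was at 163, 224 and 214 CPM in mutants and 87.7, 130 and 128 CPM in wildtypes (edgeR adjusted p = 0.109). DYRK1A (ENSDARG00000023814) was at 0.82 ± 0.28 and CLK2 (ENSDARG00000062954) at 0.91 ± 0.43 (edgeR adjusted p = 0.120 and 0.254). The groups overlapped for this CLK2 gene. A second DYRK1A gene (ENSDARG00000063570) pointed the other way, at -0.57 ± 0.39 (edgeR adjusted p = 0.433). A second CLK2 gene (ENSDARG00000059870) was at 1.23 ± 0.63 (edgeR adjusted p = 0.289). The groups overlapped in both of these second genes.

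A list of SR-related genes held coactivators that bridge SR proteins and the splicing machinery. It also held parts of that machinery, such as SNRNP70, U2AF1, U2AF2 and DDX46. Of its 32 genes 3 rose, none fell and 29 did not pass, beside 3.34% of all genes higher and 1.99% lower. The median log2 fold change was 0.38, beside 0.02 over all genes, and 81.2% were positive, beside 51.0%. The scaffold gene srrm2, whose product organises nuclear speckles, was at 197, 272 and 236 CPM in mutants and 69.3, 61.8 and 57.9 CPM in wildtypes (1.90 ± 0.24 on the log2 scale, SE; edgeR adjusted p = 0.00630). LUC7L, a partner of the U1 particle, was 3.39-fold higher and RBM39, a relative of U2AF, 2.60-fold higher (adjusted p = 0.0173 and 0.0204). The gene rbm39b did not pass, at 0.39 ± 0.24 on the log2 scale (SE; edgeR adjusted p = 0.389). LUC7L3 was at 1.13 ± 0.28 (adjusted p = 0.0508). The count of 3 fell to 1, srrm2, when mutant replicate 2 or 3 or wildtype replicate 3 was left out, and to 0 when wildtype replicate 2 was. It was 5 without mutant replicate 1, by DESeq2 and with 1 CPM in 3 libraries as the filter. The share of all genes called was not computed for the fits without a library or with that filter. Across the fits without a library, LUC7L was at 1.55 to 1.99 and RBM39 at 1.25 to 1.52 on the log2 scale. DESeq2 called 6.93% of all genes higher. Limma voom with sample weights called 6 of the list higher and 1, THRAP3, lower, beside 7.80% and 7.22% of all genes.

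Of 56 other splicing regulators often grouped with hnRNPs, such as the PTBP, PCBP, CELF, MBNL and RBFOX proteins, 1 fell, none rose and 55 did not pass, with a median of -0.08. Over all genes 1.99% were lower and 3.34% higher, so 1 of 56 does not set the list apart. CELF2, which binds GU-rich RNA and is abundant in lymphocytes and neurons, was at 51.6, 51.0 and 39.2 CPM in mutants and 121, 97.7 and 97.7 CPM in wildtypes (log2 fold change -1.16 ± 0.24, SE; edgeR adjusted p = 0.0297). It passed without mutant replicate 1 and missed the threshold without each of the other 5 libraries (0.0584 to 0.153). Its relative CELF1 was at 0.88 ± 0.23, the cold-inducible gene cirbpb at -0.92 ± 0.23 and PCBP4 at -2.64 ± 0.67 (edgeR adjusted p = 0.0622, 0.0508 and 0.0560). PCBP4 was at 62.0 CPM in wildtype replicate 1 and at 20.4 and 11.6 CPM in the other wildtypes, and without that library its log2 fold change was -1.67. Lower genes in this list numbered 2 with RLE size factors, with TMM without mitochondrial and globin genes and with 1 CPM in 3 libraries as the filter, where cirbpb also passed, and 2 with no filter, where PCBP4 did. They numbered 0 when any library but mutant replicate 1 was left out, 4 without mutant replicate 1 and 6 by DESeq2 and limma voom with sample weights, which called 1 and 3 higher. Over all genes DESeq2 called 6.24% lower and 6.93% higher, and limma voom 7.22% lower and 7.80% higher. These shares were not computed for the fits without a library or with other filters or scalings. Across the fits without a library, CELF2 stayed at a log2 fold change of -1.235 to -1.035. The summed neuron and retina markers were also below the wildtype range in the mutants (29.3 to 34.2 CPM against 279, 71.3 and 61.7 CPM), with wildtype replicate 1 far above the other wildtypes, and their part in these values was not tested.

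Genes for proteins of the core snRNPs and their assembly are given beside these regulators. Of 18 genes listed for the U4/U6.U5 particle and its assembly, 12 were higher, with a median log2 fold change of 2.32. Of 10 genes of the U2 factors SF3A and SF3B, 7 were higher, with a median of 1.48. The corresponding values were 1 of 16 and 0.33 for the SR genes and 2 of 24 and 0.32 for the hnRNP genes. No gene in any of these 4 sets was lower. Over all genes tested 3.34% were higher and 1.99% lower, with a median of 0.02. Without wildtype replicate 2 the counts were 8 and 2 for the snRNP sets and 0 and 0 for the regulators. The share of all genes was not computed for that fit. The difference between these sets was not tested as such, and the sets were chosen with earlier results of these data known. Of the 40 SR and hnRNP genes, SRSF1 of chromosome 21 alone lay above SART3. That was the lowest called gene of the U4/U6.U5 list, a mark that the calls themselves set. The 6 genes of the U4/U6.U5 list that did not pass were at 0.23 to 1.08, within the range of the SR and hnRNP genes (-0.73 to 2.23).

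**Figure D5:**
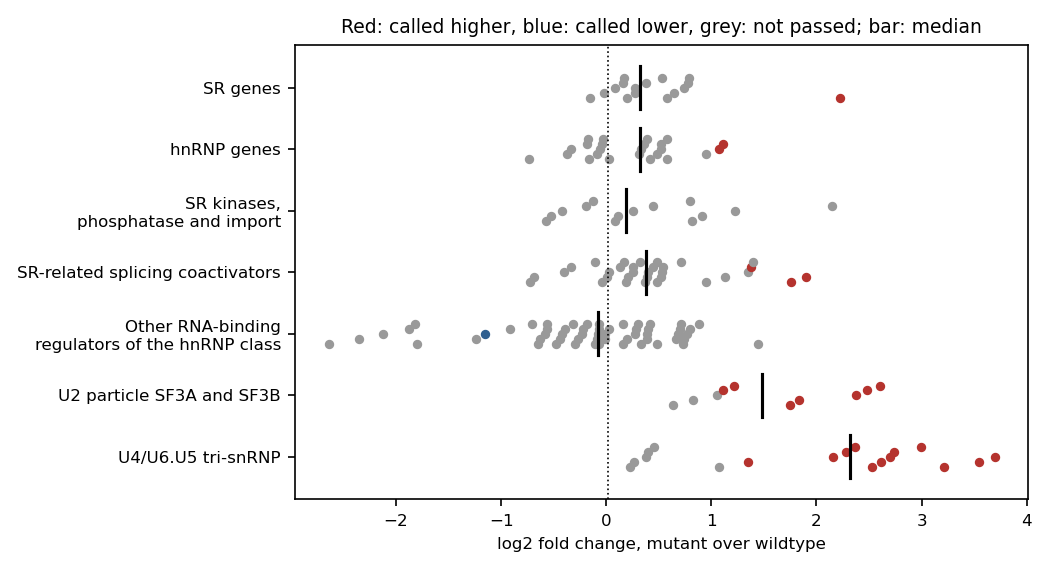
Log2 fold change of mutant over wildtype for each tested gene of 7 lists; red points are genes called higher, blue lower and grey not passed by edgeR, bars are list medians and the dotted line is the median of all genes. The SR and hnRNP genes lie around medians of 0.33 and 0.32, while the U2 and U4/U6.U5 lists lie around 1.48 and 2.32.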

How the data were processed

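The deposited values are whole-number counts of paired-end fragments per gene, made by the authors with featureCounts 1.5.0-p1, with Ensembl release 85 gene models on GRCz10, per the file headers. Both mates had to map, and no option for strand, shared genes or multiple mapping was set, so fragments on overlapping genes were not counted and close copies are uncertain. Trim Galore, STAR 2.4.2a, Picard, DESeq2 and Cufflinks 2.2.1 are named without roles, per the submitters' processing notes.

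Symbols came from a table of Ensembl names, which named 26269 of 32105 genes. In R 4.3.3, edgeR 4.0.16 was run on all genes with TMM, filterByExpr (minimum count 10, total 15), a genotype model and the two-sided quasi-likelihood F test, adjusted over 18722 genes. The SE of a fold change was taken as its log2 size over the root of F, and 95% intervals use the fit's degrees of freedom. Per-length levels divide CPM by the deposited exon length. Copy ratios are log2 ratios of counts plus 2 within a library, compared by exact permutation. Pairs are 2 kept genes with one symbol, or with symbols alike, ignoring case, but for a final a or b after a digit. The definition was widened from 2 to 10 pairs once the symbols were seen. DESeq2 1.42.0 and limma 3.58.1 were alternatives. Of 148 entries of the other lists, 17 matched no gene or several. Every kept SR and hnRNP gene could be named; per-library values were due for called genes, their copies, and the 3 most abundant and 3 most negative of each family, with up to 4 genes of each other list by smallest p, and those of further genes were added after their values were seen. The genes and lists were chosen with earlier results of these data known. No 2 libraries were alike within counting noise (chi-square per degree of freedom at least 18.3). The fit was tested on simulated counts.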

Additional observations from a re-analysis of the deposited data

How the results depend on the processing

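All counts rest on 3 libraries a genotype, and no alternative called an SR or hnRNP gene lower. By limma voom with sample weights 3 SR genes were higher (SRSF11 and srsf2a besides SRSF1), and with no filter 1 hnRNP gene was higher. Leaving out each library in turn gave 0 to 1 higher SR genes and 0 to 1 higher hnRNP genes. Of the fold changes of the 40 genes under all alternatives, 523 kept direction and side of the threshold, 15 no longer passed, 2 newly passed and 20, in 9 genes, changed sign; the cause was not tested. With a replicate block 1 SR and 2 hnRNP genes were higher, the same genes, and srsf7a was at 0.014. In that fit 5 genes of the SR-related list were higher and 4 other hnRNP-class regulators lower. The share of all genes called was not computed for the replicate block, the other filters and scalings or the fits without a library. Same-numbered libraries correlated at 0.224, 0.155 and 0.0875 in their deviations from the genotype means, so the numbers were not taken as pairs, although each library correlated best with its own number.

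The genes that changed sign when a library was left out had these ranges of log2 fold change: SRSF1 of chromosome 15 -0.017 to 0.26, srsf10b -0.36 to 0.052, srsf5a -0.040 to 0.31, srsf7a -0.24 to 0.13, HNRNPA1L2 -0.22 to 0.11, HNRNPAB of chromosome 21 -0.24 to 0.080, hnrnpa0l -0.14 to 0.033, hnrnph1 -0.0093 to 0.77 and hnrnpr -0.12 to 0.11. The 70 alternative values of the copy ratios moved by less than 1 SD of the libraries. Leaving out 1 of 3 libraries cannot move a ratio further than this, so those values do not test its stability.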
